A study of Mus musculus with 6 samples.

Results

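The genes described here are 8 mouse genes for secreted or membrane-anchored proteins of the extracellular matrix and of cell adhesion: Esm1, Col18a1, Wisp1, Igfbp7, Adam8, Adam19, Gpnmb and Ecm1. They are 8 of the 23992 gene symbols in a table of read counts from Treg cells, which are regulatory CD4 T cells that depend on the transcription factor Foxp3 and hold other immune cells in check. The members were chosen from their values in the comparison of KO with WT cells made here, so their differences between the genotypes are given as a description. Calls from the test over all genes are counted for them below only to say where they stand, and support nothing. Each symbol was represented by its transcript row with the highest summed count.

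RNA was sequenced in 6 libraries, in 2 groups of 3 named KO and WT in their titles, to compare Treg cells lacking and having Crlf2, the subunit that makes a receptor specific for TSLP, a cytokine of barrier tissues. All libraries were made from live CD4+YFP+ cells of CD45.2 males hemizygous for the Foxp3 YFP-Cre allele (Foxp3YFP-Cre/Y), in which a yellow fluorescent protein and Cre recombinase are made in Foxp3-expressing cells. The KO animals also carried the floxed Crlf2 allele (Crlf2fl/fl), and the WT animals carried the Cre allele alone. By the labels, lymph nodes and spleen were pooled. A treatment, the age of the mice, and whether a library stands for 1 animal or several are not stated in the labels. The strain line of each sample description names the opposite genotype from its title and genotype tag, and groups were taken from the title and the tag. The tissue is labelled as spleen and lymph node, whereas the deposited table's title mentions lung, so the tissue of origin is uncertain.

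The extracellular matrix is built from collagens, proteoglycans and glycoproteins, and cells reshape it by secreting proteins into it and by cutting it, or the receptors that bind it, with metalloproteases. T cells are minor producers of matrix, but they carry integrins and other receptors that bind matrix and vessel walls, and some of their surface receptors are shed by proteases of the ADAM family. Several of the members are better known from endothelial cells, fibroblasts or macrophages than from T cells.

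Library totals ranged from 1439736 counts in WT replicate 2 to 18352401 in KO replicate 3, and 12720 genes passed the filter on low counts. Values are CPM, read counts scaled to library size and adjusted by TMM factors, which equalise the bulk of genes between libraries. In a library with 0 reads of a gene, up to 3 counts are possible, or 2.05 CPM in WT replicate 2 and 0.157 to 0.401 CPM elsewhere, for counting error only. Crlf2 (chromosome 5, 109554709 to 109558993, minus strand) was at 3.55 to 9.06 CPM in the KO libraries and 92.8 to 146 CPM in the WT libraries, in the direction of the titles and genotype tags. Foxp3 was at 386 to 489 CPM in KO and 200 to 474 CPM in WT, with overlapping groups. Transcripts of lung epithelium, including surfactant genes, made up 0.264 to 2.05% of counts in KO and 1.77 to 7.92% in WT. Red cell and platelet transcripts were 14.5% of counts in WT replicate 3 and at most 0.686% elsewhere. The globin symbols Hbb-bt and Hbb-b2 had the same value in WT replicate 3, 21383 CPM, so this share can count the same reads more than once. Summed neutrophil and B and plasma cell markers were also highest in WT replicate 3, at 0.0589 and 0.0351% of counts. They were at most 0.0088 and 0.0055% elsewhere.

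All 8 members passed the filter, and 6 were called higher in KO at an edgeR adjusted p under 0.05 while 0 were called lower. Over all 12720 tested genes 0.755% were called higher, 0.983% were called lower and 1.74% either way. Because this contrast chose the members, nothing follows from the difference between these shares. The 6 called genes were Esm1, Col18a1, Wisp1, Igfbp7, Adam8 and Gpnmb, and in each of them all 3 KO libraries lay above all 3 WT libraries. In Ecm1 all 3 KO libraries lay below all 3 WT libraries, without a call, and in Adam19 the groups overlapped. Over all tested genes the KO libraries lay wholly above in 10.4% and wholly below in 11.5%. Between the 2 members on either side of the calling threshold, Wisp1 was inside with a log2 fold change of 2.81 and Ecm1 was outside with -0.85. In bulk RNA a gene's level cannot tell apart fewer cells that express it and less of its RNA in each cell.

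**Figure D1:**
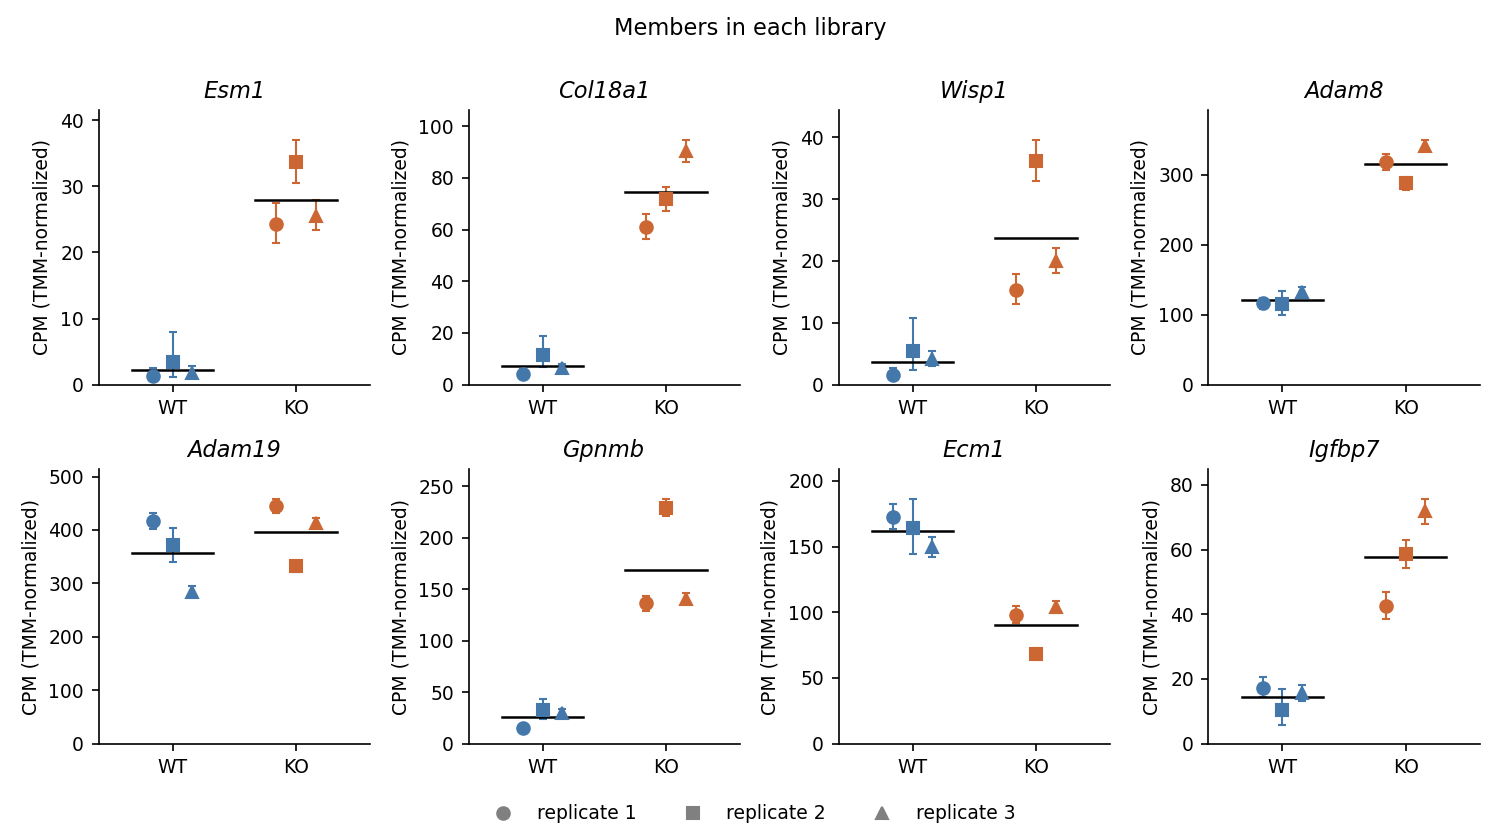
TMM-normalized CPM of the 8 members on linear axes from 0, with 1 point per library (3 WT in blue and 3 KO in orange), its exact 95% Poisson interval for counting error, and a black line at each group's mean. The groups are separate in all members except Adam19, and Ecm1 is the member with lower values in KO.

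Promoter windows of the members that carry the largest differences, and of those that hold an AP-1 motif, are printed to show the sequence around the start sites. They come from RefSeq on GRCm38.p6, run from 250 bases before to 50 bases after an annotated start, and are available for 7 of the 8 members (10 windows). AP-1 factors downstream of T cell activation bind forms of TGANTCA, where N is any base. These letters were searched on both strands, and matches are in capitals:

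Esm1, chr13:113209409-113209708, plus strand: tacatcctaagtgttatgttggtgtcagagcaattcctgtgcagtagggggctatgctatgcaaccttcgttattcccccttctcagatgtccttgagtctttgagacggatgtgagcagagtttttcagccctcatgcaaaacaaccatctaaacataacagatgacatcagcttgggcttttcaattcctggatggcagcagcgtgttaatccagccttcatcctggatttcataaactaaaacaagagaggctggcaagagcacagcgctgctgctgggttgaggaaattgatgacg

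Col18a1, chr10:77166481-77166780, minus strand: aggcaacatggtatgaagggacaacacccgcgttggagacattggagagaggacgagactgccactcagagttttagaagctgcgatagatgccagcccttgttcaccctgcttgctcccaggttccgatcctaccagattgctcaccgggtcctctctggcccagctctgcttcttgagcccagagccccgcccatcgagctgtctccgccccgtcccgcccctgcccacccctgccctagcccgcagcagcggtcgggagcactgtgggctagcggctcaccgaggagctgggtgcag

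Gpnmb, chr6:49036268-49036567, plus strand: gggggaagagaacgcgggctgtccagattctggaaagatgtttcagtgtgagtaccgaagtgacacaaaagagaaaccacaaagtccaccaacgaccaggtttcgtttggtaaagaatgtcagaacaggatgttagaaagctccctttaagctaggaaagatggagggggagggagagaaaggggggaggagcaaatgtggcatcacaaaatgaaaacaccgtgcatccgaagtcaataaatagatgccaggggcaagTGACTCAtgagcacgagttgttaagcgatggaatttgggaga

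Ecm1, chr3:95739520-95739819, minus strand: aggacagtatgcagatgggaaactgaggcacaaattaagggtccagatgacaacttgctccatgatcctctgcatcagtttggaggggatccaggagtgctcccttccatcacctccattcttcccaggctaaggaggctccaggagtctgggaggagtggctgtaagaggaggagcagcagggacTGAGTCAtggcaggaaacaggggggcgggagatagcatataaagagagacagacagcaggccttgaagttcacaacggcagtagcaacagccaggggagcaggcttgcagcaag

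Adam19, chr11:46055734-46056033, plus strand: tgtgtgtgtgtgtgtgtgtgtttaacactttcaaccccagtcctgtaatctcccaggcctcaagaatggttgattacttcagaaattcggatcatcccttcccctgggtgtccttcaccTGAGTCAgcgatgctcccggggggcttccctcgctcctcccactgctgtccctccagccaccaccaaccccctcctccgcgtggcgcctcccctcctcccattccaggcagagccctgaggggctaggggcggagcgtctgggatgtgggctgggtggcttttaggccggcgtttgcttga

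The AP-1 letters were in 3 of the members' 10 windows, those of Gpnmb, Ecm1 and the second window of Adam19, and in 7.81% of the 32851 windows of all genes. The 3 matches read TGACTCA or TGAGTCA, whereas the share over all windows counts any base at N. TTCNNNGAA, the letters that STAT factors bind, were in 0 of the 10 windows and in 8.30% of all windows. AGATAA, letters that factors of the GATA family bind, was in 0 of the 10 and in 11.2% of all. TTCNNNGAA and TGANTCA were searched separately and can overlap. Matches are described only as letters within these windows. The member windows differed in composition. Igfbp7 had a G+C content of 73.3% with 33 CpG dinucleotides, against 46.3% and 5 in Esm1, 47.7% and 9 in Gpnmb, and medians of 52.7% and 7 over all windows.

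Among the matrix proteins, the proteoglycan Esm1 and the collagen Col18a1 had the largest fold differences of the members. Esm1 encodes endocan, a secreted dermatan sulfate proteoglycan that binds the integrin LFA-1 and is known as an endothelial product. The gene lies on chromosome 13 (113209659 to 113218098, plus strand, mm10, protein coding, 3 exons in the counted transcript). Esm1 was at 1.34, 3.42 and 1.80 CPM in WT replicates 1 to 3 and at 24.3, 33.7 and 25.6 CPM in KO replicates 1 to 3. All KO libraries were high and close to one another, the lowest of them 7.11 times the highest WT library. Group means were 2.19 ± 1.09 CPM in WT against 27.9 ± 5.08 CPM in KO (SD, n = 3 each), a log2 fold change of 3.87 (SE 0.40), or 14.6-fold. The WT values rest on 10, 5 and 19 reads and the KO values on 250, 421 and 490. The 5 reads of the shallow WT replicate 2 allow 1.11 to 7.98 CPM by an exact 95% Poisson interval.

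Col18a1 encodes the alpha chain of collagen XVIII, a basement membrane collagen that carries heparan sulfate and whose end is released as endostatin. It lies on chromosome 10 (77052178 to 77166548, minus strand, 42 exons in the counted transcript). Col18a1 was at 4.15, 11.6 and 6.24 CPM in WT replicates 1 to 3 and at 61.1, 71.6 and 90.4 CPM in KO replicates 1 to 3. No KO library came near the WT libraries, and the lowest was 5.26 times the highest WT value. Means were 7.34 ± 3.86 CPM in WT against 74.4 ± 14.8 CPM in KO (SD, n = 3 each), a log2 fold change of 3.52 (SE 0.35), or 11.5-fold. Both deposited Col18a1 transcripts showed it. The other one, with 41 exons and a start 52843 bases downstream, had 30, 18 and 65 reads in WT and 603, 863 and 1673 in KO, close to the 31, 17 and 66 and the 628, 895 and 1732 reads of the counted one. The 2 transcripts share 4044 exon bases, so their counts largely repeat the same reads and do not tell the starts apart.

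Wisp1, named Ccn4 in the annotation, encodes a matricellular protein of the CCN family, known as a target of Wnt signalling in fibroblasts. It lies on chromosome 15 (66891320 to 66923201, plus strand, 5 exons in the counted transcript). Wisp1 was at 1.47, 5.47 and 4.07 CPM in WT replicates 1 to 3 and at 15.3, 36.1 and 19.9 CPM in KO replicates 1 to 3. KO replicate 2 stood above the other KO libraries, and Wisp1 had the widest spread of the members within both groups. Means were 3.67 ± 2.03 CPM in WT against 23.8 ± 10.9 CPM in KO (SD, n = 3 each), a log2 fold change of 2.81 (SE 0.55), or 7.03-fold. The lowest KO value was 2.79 times the highest WT value, which came from 8 reads of WT replicate 2.

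Igfbp7 encodes a secreted binding protein of the insulin-like growth factor family with weak affinity for its growth factors, deposited in vessel basement membranes. It lies on chromosome 5 (77349240 to 77408041, minus strand, 6 exons in the counted transcript). Igfbp7 was at 17.3, 10.3 and 15.6 CPM in WT replicates 1 to 3 and at 42.6, 58.6 and 71.8 CPM in KO replicates 1 to 3. The groups were separate, with the lowest KO library 2.47 times the highest WT library. Means were 14.4 ± 3.65 CPM in WT against 57.6 ± 14.6 CPM in KO (SD, n = 3 each), a log2 fold change of 1.96 (SE 0.27), or 3.88-fold. The 15 reads of WT replicate 2 allow 5.74 to 16.9 CPM by an exact 95% Poisson interval. In the annotation 77 of the 1200 exon bases of its transcript overlap Polr2b on the opposite strand. Polr2b, a subunit of RNA polymerase II, was at 58.5 ± 9.85 CPM in WT against 61.1 ± 6.58 CPM in KO (SD, n = 3 each). How strand was handled in counting is not stated.

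The metalloproteases Adam8 and Adam19, both membrane-anchored, behaved differently. Adam8, which is known to shed adhesion receptors of leukocytes, lies on chromosome 7 (139978932 to 139992562, minus strand, 24 exons in the counted transcript). Adam8 was at 116, 116 and 132 CPM in WT replicates 1 to 3 and at 318, 288 and 342 CPM in KO replicates 1 to 3. Both groups were tight, and the lowest KO value was 2.17 times the highest WT value. Means were 121 ± 9.51 CPM in WT against 316 ± 27.2 CPM in KO (SD, n = 3 each), a log2 fold change of 1.38 (SE 0.13), or 2.60-fold. The annotated Gm16201 overlaps 46 exon bases of Adam8 on the opposite strand. Adam8 had the smallest ratio of highest to lowest library of the members, 1.19 in KO and 1.14 in WT.

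Adam19, also called meltrin beta and known to shed neuregulin, lies on chromosome 11 (46055992 to 46147343, plus strand, 23 exons in the counted transcript). Adam19 was at 416, 372 and 284 CPM in WT replicates 1 to 3 and at 445, 332 and 413 CPM in KO replicates 1 to 3. The groups overlapped, with KO replicate 2 below 2 of the WT libraries, so Adam19 did not differ beyond the spread between replicates. Means were 357 ± 67.2 CPM in WT against 397 ± 58.5 CPM in KO (SD, n = 3 each), a log2 fold change of 0.15 (SE 0.17). With pan-T cell genes as the scaling reference the log2 fold change was -0.08. Antisense transcripts Gm16033 and Gm16034 overlap 587 and 480 exon bases of Adam19, and their reads cannot be told apart from its own without a known strand setting.

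Gpnmb encodes a transmembrane glycoprotein whose outer part is shed and binds syndecan-4 on T cells, and it is known from macrophages, melanocytes and osteoclasts. It lies on chromosome 6 (49036546 to 49070929, plus strand, 11 exons in the counted transcript). Gpnmb was at 14.8, 32.8 and 30.2 CPM in WT replicates 1 to 3 and at 136, 229 and 141 CPM in KO replicates 1 to 3. KO replicate 2 was the highest, and the lowest KO library was 4.15 times the highest WT library. Means were 26.0 ± 9.71 CPM in WT against 169 ± 52.6 CPM in KO (SD, n = 3 each), a log2 fold change of 2.74 (SE 0.34), or 6.69-fold.

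Ecm1 was the only member with lower values in KO. It encodes a secreted glycoprotein that binds perlecan and other matrix proteins, and in T cells it is known for the exit of helper cells from lymph nodes. The gene lies on chromosome 3 (95734147 to 95739569, minus strand, 11 exons in the counted transcript). Ecm1 was at 172, 164 and 149 CPM in WT replicates 1 to 3 and at 98.1, 67.9 and 104 CPM in KO replicates 1 to 3. The WT libraries were close together, all KO libraries lay below them, and KO replicate 2 was the lowest. Means were 162 ± 11.7 CPM in WT against 90.0 ± 19.3 CPM in KO (SD, n = 3 each), a log2 fold change of -0.85 (SE 0.18), or 1.80-fold lower.

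**Figure D2:**
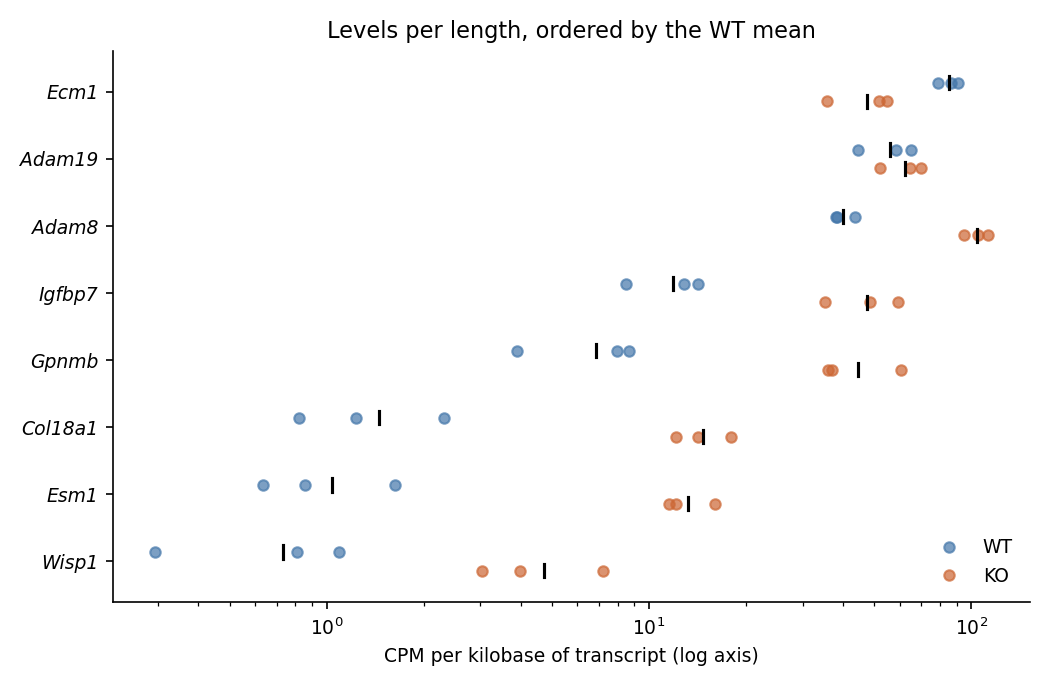
CPM per kilobase of transcript for each member on a log axis, with 1 point per library and the group means, ordered by the WT mean. Ecm1 and Adam19 lead in WT, Adam8 leads in KO, and Wisp1 is lowest in both groups.

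Per transcript length, the order of the members differed between the genotypes. In WT, mean CPM per kilobase was 85.3 ± 6.15 for Ecm1, 56.0 ± 10.5 for Adam19 and 40.0 ± 3.14 for Adam8 (SD, n = 3 each). Igfbp7 followed at 11.8 ± 3.01 and Gpnmb at 6.83 ± 2.56. Col18a1, Esm1 and Wisp1 closed the WT order at 1.46 ± 0.77, 1.04 ± 0.52 and 0.73 ± 0.40 CPM per kilobase. Among WT neighbours in this order, the library ranges overlapped for Igfbp7 with Gpnmb, Col18a1 with Esm1, and Esm1 with Wisp1. In KO, Adam8 led at 104 ± 8.96 CPM per kilobase, above Adam19 at 62.1 ± 9.15 without overlap, and Adam19 overlapped with Igfbp7. Igfbp7, Ecm1 and Gpnmb lay together at 47.5 ± 12.1, 47.4 ± 10.2 and 44.4 ± 13.8 CPM per kilobase, with overlapping ranges between neighbours. Col18a1 at 14.8 ± 2.94 and Esm1 at 13.3 ± 2.42 also overlapped in KO, and Wisp1 was last at 4.73 ± 2.18.

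The CPM of the 7 members with a positive fold change summed to 572, 551 and 474 in WT replicates 1 to 3 and to 1043, 1049 and 1103 in KO replicates 1 to 3. Adam8 and Adam19 made up most of that sum in every library, 87.8 to 93.2% in WT and 59.1 to 73.2% in KO. The share of Gpnmb in it was 2.60 to 6.36% in WT and 12.7 to 21.9% in KO. These sums are weighted by transcript length and by the abundant ADAM pair. The genes in them were chosen by this contrast and its sign, and Ecm1 is left out. Higher sums in KO follow from that choice and support nothing.

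Within a group the members did not all follow the same library. Among the KO libraries, replicate 2 was the highest for Esm1, Wisp1 and Gpnmb, and replicate 3 for Col18a1, Adam8, Ecm1 and Igfbp7. Among the WT libraries, replicate 2 was the highest and replicate 1 the lowest for Esm1, Col18a1, Wisp1 and Gpnmb. The ratio of the highest to the lowest KO library ran from 1.19 for Adam8 to 2.36 for Wisp1, and that of the WT libraries from 1.14 for Adam8 to 3.72 for Wisp1. WT replicate 2, the shallowest library, gave 5, 17, 8 and 15 reads for Esm1, Col18a1, Wisp1 and Igfbp7.

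Likeness between genes was measured as the root mean square difference of their log2 CPM, each centred on its own mean, over the 6 libraries, where a smaller value means a more similar profile. Among the 28 pairs of members, Wisp1 with Gpnmb (0.23) and Esm1 with Col18a1 (0.25) were the most alike, and Esm1 with Ecm1 (2.31) the least. Profiles were then compared over all tested genes with a name other than the members. The nearest to Esm1 were those of Gfra4, Morn4 and Icam4 (0.47, 0.47 and 0.48), and to Col18a1 those of Gfra4, Calca and Morn4 (0.28, 0.46 and 0.48). Morn4 and Icam4 had a WT mean of 0 CPM and KO means of 1.49 and 2.86 CPM, so they passed the filter through KO alone. Their WT values come from the prior count of 2, and their likeness to genes that are high in KO follows from that. Wisp1 was closest to Lhfpl2, Lrrn4 and Hectd2 (0.31, 0.36 and 0.47) and Gpnmb to Cib2, Lrrn4 and Slc37a2 (0.29, 0.32 and 0.32). Igfbp7 was closest to Nxnl2, Prelid2 and Car15 (0.25, 0.25 and 0.30). Hectd2 had a WT mean of 0.26 CPM and a KO mean of 1.78 CPM, and Car15 had 0.63 and 2.78 CPM. The WT values of Hectd2 and Car15 thus also rest in part on the prior count, and so does their likeness to genes high in KO. Hist2h2bb and Plk3 (0.13 and 0.16) were among the nearest to Adam8, and Tnik and Wdr24 (0.04 and 0.05) among the nearest to Adam19. Ecm1 was closest to Cdc6, Furin and Zfp84 (0.09, 0.11 and 0.11). These values hold the difference between the genotypes, shared by all genes compared, and describe likeness in these 6 libraries only.

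The rest of the matrix and adhesion genes were read in 11 lists without the members. The lists hold 262 symbols of the table, of which 131 passed the filter. Of these 131, 4 were called higher and 2 lower in KO (4.58%, against 1.74% of all tested genes). The lists were chosen with earlier results of these data known, so nothing follows from the difference between these shares. An unadjusted p under 0.05 was found for 22 of the 131, against 2018 of all 12720 tested genes. The median log2 fold change of the 131 genes was -0.03, and that of all tested genes was -0.04.

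**Figure D3:**
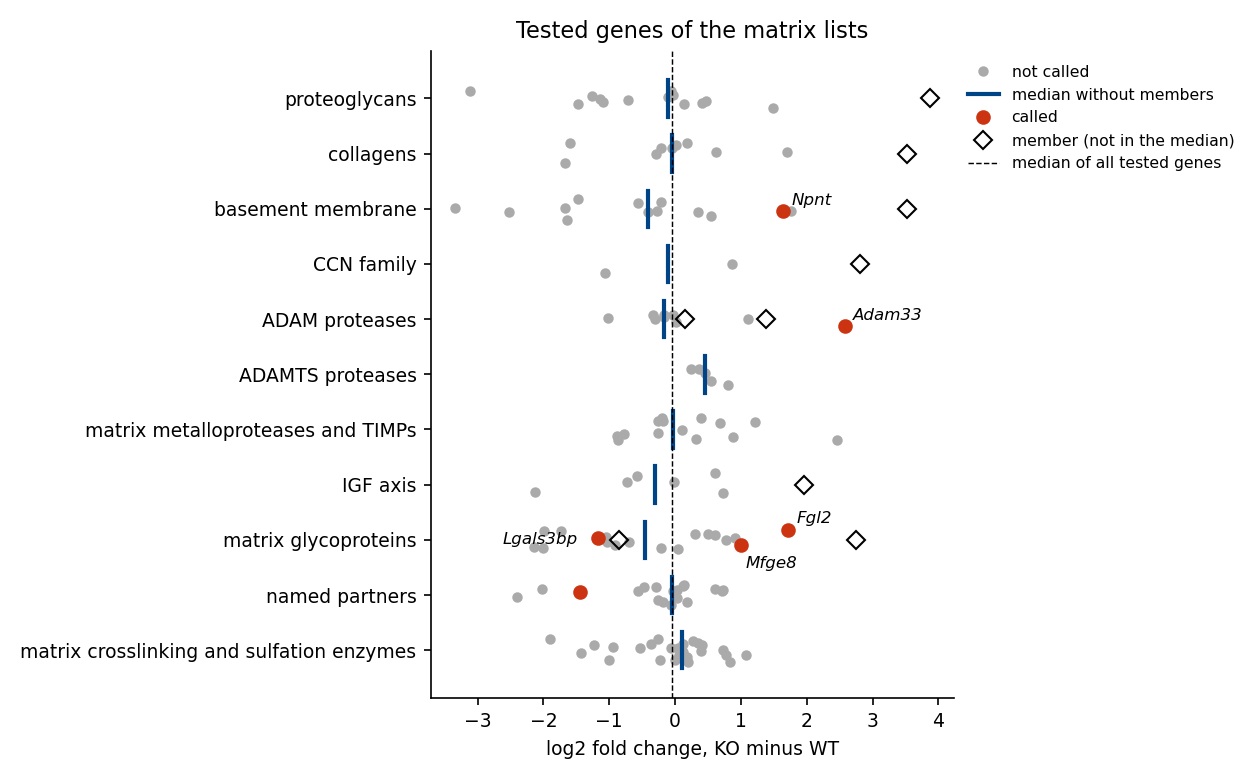
Log2 fold change of KO over WT for the tested genes of 11 matrix and adhesion lists, with list medians as blue bars, called genes in red (5 of them with their symbols) and the members as open diamonds, which are not in the medians. Most listed genes lie around the dashed median of all tested genes, and 6 genes outside the members are called.

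In the proteoglycan list, 0 of 13 tested genes other than Esm1 were called, with a median log2 fold change of -0.10. Srgn, the serglycin of leukocyte granules, was at 677 ± 52.9 CPM in WT against 652 ± 61.6 CPM in KO (SD, n = 3 each). Cd44, the hyaluronan receptor, was at 168, 232 and 279 CPM in WT replicates 1 to 3 and at 321, 289 and 334 CPM in KO replicates 1 to 3, a log2 fold change of 0.48 that missed the threshold (edgeR adjusted p = 0.254). Of 9 tested collagens other than Col18a1, 0 were called. Col11a2 was at 4.78 ± 2.33 CPM in WT against 7.23 ± 3.02 CPM in KO, and Col10a1 at 2.87 ± 3.08 and 3.29 ± 3.45 CPM (SD, n = 3 each).

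Of 13 tested basement membrane genes other than Col18a1, 1 was called higher. This was Npnt, which encodes nephronectin, a ligand of an integrin. Npnt was at 10.3, 10.3 and 6.53 CPM in WT replicates 1 to 3 and at 24.7, 23.1 and 35.0 CPM in KO replicates 1 to 3. Its log2 fold change was 1.64 (SE 0.31, adjusted p = 0.0451 by edgeR), and the groups did not overlap. The call of Npnt was lost with scaling to pan-T genes, with a covariate for the lung epithelial share, and in the absence of any library but WT replicate 3. The list's median was -0.41, with 4 of 13 genes above 0. The CCN genes Ctgf and Cyr61, the 2 of this family tested besides Wisp1, were not called, with 1.85 ± 1.74 CPM for Ctgf and 2.19 ± 2.00 CPM for Cyr61 in WT, and 3.54 ± 0.89 and 1.09 ± 0.85 CPM in KO (SD, n = 3 each).

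In the ADAM list, 1 of 9 tested genes other than Adam8 and Adam19 was called higher. Adam33, a metalloprotease known from airway mesenchyme, was at 7.35, 10.9 and 2.55 CPM in WT replicates 1 to 3 and at 41.9, 26.3 and 44.0 CPM in KO replicates 1 to 3. KO exceeded WT in every pairing of libraries, and the log2 fold change of Adam33 was 2.58 (SE 0.49, adjusted p = 0.0465 by edgeR). Adam33 was no longer called with the lung covariate or when any library but WT replicate 3 was left out. The list's median was -0.16. None of the 5 ADAMTS and 14 MMP and TIMP genes was called, with medians of 0.45 and -0.03, and all 5 ADAMTS genes had a positive fold change. Adamts10 was at 106, 123 and 123 CPM in WT replicates 1 to 3 and at 143, 191 and 147 CPM in KO replicates 1 to 3, without a call (edgeR adjusted p = 0.205). Adamts6 was at 11.8 ± 2.46 and 16.9 ± 2.43 CPM, Mmp25 at 45.4 ± 20.1 and 57.2 ± 5.31 CPM, and Timp2 at 49.1 ± 7.60 and 52.6 ± 1.91 CPM in WT and KO (SD, n = 3 each).

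Of 6 tested genes of the insulin-like growth factor axis other than Igfbp7, 0 were called, and their median was -0.30. Igfbp4 went the other way from Igfbp7, at 51.6, 38.3 and 201 CPM in WT replicates 1 to 3 and 26.5, 17.6 and 24.0 CPM in KO replicates 1 to 3. Its WT mean rests on replicate 3, and its log2 fold change of -2.13 (SE 0.65) did not pass the threshold (edgeR adjusted p = 0.191). Igf2r was at 79.8 ± 27.0 CPM in WT against 79.1 ± 7.54 CPM in KO (SD, n = 3 each). The difference between Igfbp7 and Igfbp4 was not tested.

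Matrix glycoproteins other than Ecm1 and Gpnmb gave 2 genes called higher and 1 called lower of 18 tested, with a median of -0.45. Fgl2, a fibrinogen-like protein secreted by Treg cells, was at 362, 375 and 257 CPM in WT replicates 1 to 3 and at 1159, 920 and 1188 CPM in KO replicates 1 to 3. Its log2 fold change was 1.72 (SE 0.17, adjusted p = 0.0077 by edgeR). Mfge8, a bridge between integrins and dying cells, was at 40.5 ± 5.18 CPM in WT against 80.9 ± 9.49 CPM in KO (SD, n = 3 each), a log2 fold change of 1.01 (SE 0.17, adjusted p = 0.033 by edgeR). Lgals3bp, a secreted ligand of galectin-3, was lower, at 475, 436 and 347 CPM in WT replicates 1 to 3 and 182, 230 and 148 CPM in KO replicates 1 to 3. Its log2 fold change was -1.17 (SE 0.19, adjusted p = 0.0288 by edgeR). With the lung covariate all 3 of these calls were lost, and with pan-T scaling that of Mfge8. The call of Fgl2 was also lost without KO replicate 1 and without KO replicate 3. That of Lgals3bp was lost in these cases and without WT replicate 1 or 2, and that of Mfge8 when any library but WT replicate 3 was left out.

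Among 18 tested partners of the members (receptors, ligands and substrates), 0 were called higher and 1 was called lower, with a median of -0.05. Among 29 tested crosslinking and sulfation enzymes 0 were called, with a median of 0.11, and WT and KO means were 70.5 ± 24.9 and 80.4 ± 16.3 CPM for Chst12 and 79.2 ± 30.8 and 85.3 ± 18.4 CPM for Chpf (SD, n = 3 each).

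Markers of the cell types in which the members are better known were read beside them, as summed shares of counts. The 14 endothelial markers, of which 1 was at 0 in all libraries, made up 0.0095 to 0.0143% of counts in WT and 0.0086 to 0.0101% in KO, overlapping. The defining endothelial gene Cdh5 had 0, 1 and 45 reads in WT replicates 1 to 3 and 11, 4 and 0 in KO replicates 1 to 3. Kdr had 210, 3 and 70 reads in WT and 41, 26 and 23 in KO. Pecam1, also expressed by leukocytes, had 535, 175 and 944 reads in WT and 754, 784 and 1310 in KO. The part of endothelial RNA in the values of Esm1, Col18a1 and Igfbp7 was not tested.

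The 14 fibroblast and mural markers, 3 of them at 0 in all libraries, were at 0.0020 to 0.0071% of counts in WT and 0.00092 to 0.0018% in KO. Col1a1 had 1, 1 and 87 reads in WT replicates 1 to 3 and 71, 16 and 1 in KO replicates 1 to 3. Col1a2 had 2, 0 and 76 reads in WT and 8, 0 and 0 in KO, and Col3a1 had 16, 0 and 143 in WT and 1, 1 and 1 in KO. By these genes WT replicate 3 held the most fibroblast RNA, and its part in the Wisp1 difference was not tested.

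The 13 macrophage and monocyte markers in the table made up 0.0355, 0.0487 and 0.454% of counts in WT replicates 1 to 3 and 0.121, 0.128 and 0.121% in KO replicates 1 to 3. The 11 alveolar macrophage markers made up 0.0242, 0.0599 and 0.388% in WT and 0.183, 0.191 and 0.204% in KO. By both lists KO lay above WT replicates 1 and 2 and below WT replicate 3. Gpnmb was at 30.2 CPM in WT replicate 3, with the most macrophage transcripts, at 32.8 CPM in WT replicate 2, and at 136 CPM or more in every KO library. The part of macrophage RNA in the Gpnmb difference was not tested. A fit with the macrophage share as a covariate called 599 genes, among them 7 members with Gpnmb. Because this contrast chose Gpnmb, that call cannot decide the question. Lyz2 was at 231, 309 and 3747 CPM in WT replicates 1 to 3 and 816, 818 and 837 CPM in KO replicates 1 to 3.

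**Figure D4:**
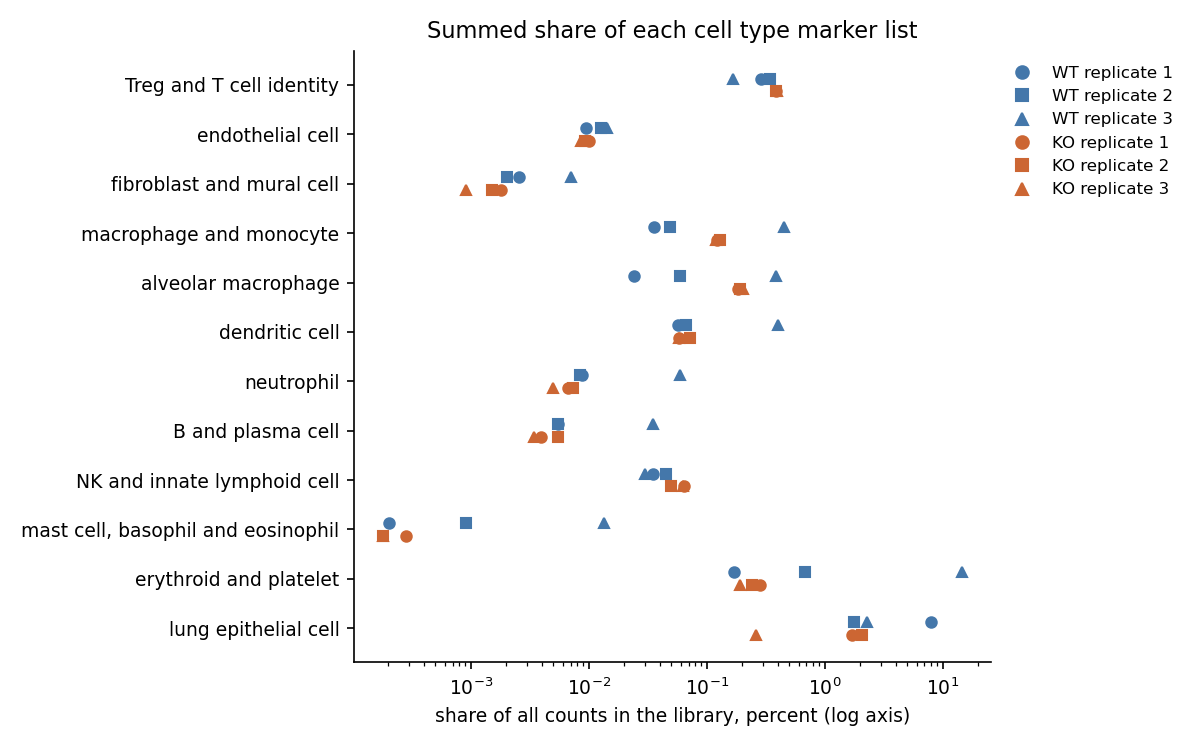
Share of counts, in percent on a log axis, in 12 lists of marker genes (Treg cells and other cell types), with 1 point per library. Macrophage, alveolar macrophage, dendritic cell, neutrophil, B and plasma cell, mast cell, erythroid, endothelial and fibroblast shares are highest in WT replicate 3. The Treg identity share is higher in all KO libraries than in all WT libraries.

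Summed shares of T cell markers were higher in the KO libraries, although edgeR called 0 of the 18 tested markers in the 2 lists. An unadjusted p under 0.05 was found for 4 of the 18, against 2018 of all 12720 tested genes. The 8 Treg identity markers made up 0.167 to 0.345% of counts in WT and 0.383 to 0.393% in KO, and the 13 pan-T markers 0.464 to 0.797% and 0.815 to 0.924%. The 2 lists share Cd3d, Cd3e and Cd3g. Single markers lay above WT in all KO libraries in 4 of the 8 and 2 of the 13, against 10.4% of all tested genes. The 2 were Cd3e and Cd3g, which are also among the 4. WT replicate 3, with the most red cell transcripts, had the lowest share in both lists. The 10 markers of NK and innate lymphoid cells were at 0.030 to 0.045% in WT and 0.050 to 0.065% in KO. Of its defining genes, Ncr1 had 4, 3 and 419 reads in WT replicates 1 to 3 and 5, 6 and 3 in KO replicates 1 to 3. Klrb1c had 3, 3 and 386 reads in WT and 4, 6 and 5 in KO, and Klra8 had 0, 1 and 82 in WT and 3, 2 and 3 in KO. These genes were thus near 0 in KO, and the 4 tested genes of the list were Il1rl1, Rora, Areg and Calca, named after their values were seen, of which Calca was called higher. The 3 summed shares lay above WT in all KO libraries, like 6 of the members, and their part in the members' differences was not tested. Scaling to pan-T genes left Esm1, Col18a1, Gpnmb and Igfbp7 called higher and Wisp1 and Adam8 not called, and Ecm1 was called lower. Over all genes it called 27 higher and 142 lower, where TMM called 96 higher and 125 lower, and it moved the median log2 fold change of all genes from -0.04 to -0.31.

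**Figure D5:**
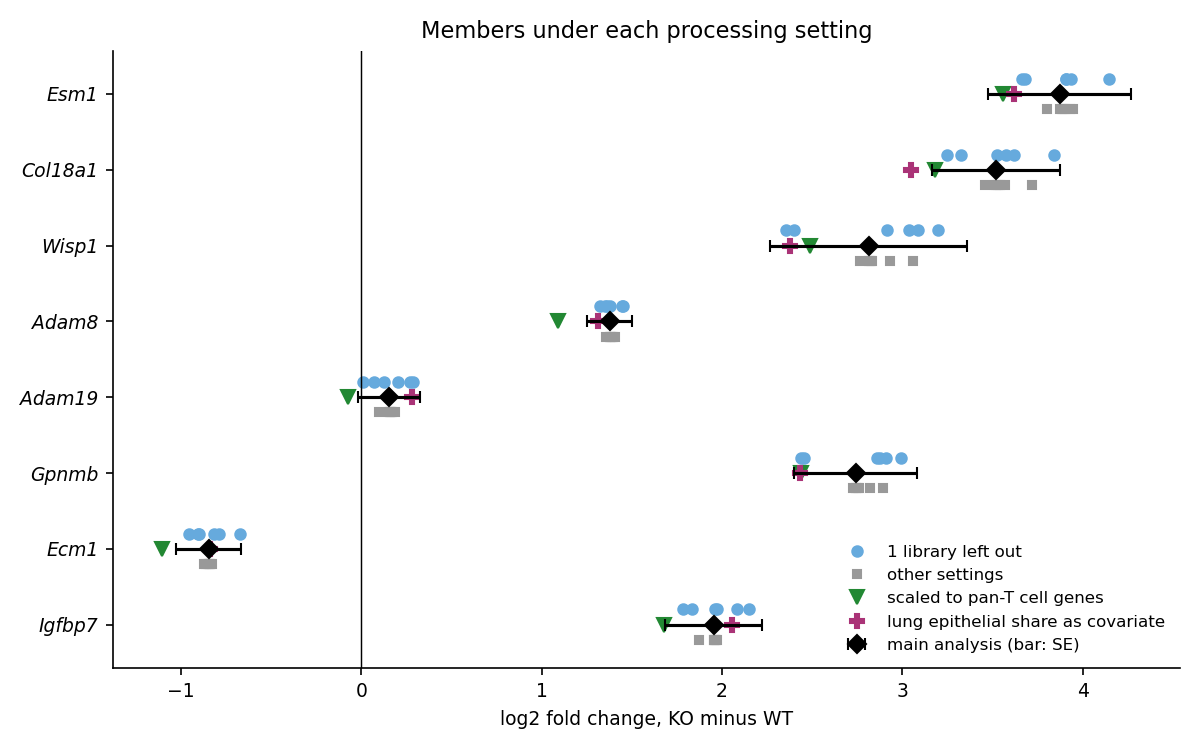
Log2 fold change of KO over WT for the 8 members under the reported setting (black, with its SE as the bar) and 15 alternatives, 6 of which leave out 1 library (blue). Every member except Adam19 keeps its sign throughout, and Adam19 crosses 0 under scaling to pan-T genes.

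Over 15 alternative analyses the log2 fold change lay between 3.56 and 4.15 for Esm1, 3.05 and 3.84 for Col18a1, 2.36 and 3.20 for Wisp1, and 1.68 and 2.15 for Igfbp7. It lay between 1.09 and 1.45 for Adam8, -0.08 and 0.29 for Adam19, 2.43 and 2.99 for Gpnmb, and -1.11 and -0.67 for Ecm1. Which members passed the threshold depended on single libraries, as did the number called over all tested genes, 221 with all 6 libraries. Without KO replicate 1 or without KO replicate 3, 0 members were called by edgeR, and over all tested genes 4 and 7 were called. In each case 7 members had an unadjusted p under 0.05, from which nothing follows, since this contrast chose them. Over all tested genes 1451 of 13321 and 1336 of 13144 had one. Without KO replicate 2, or without WT replicate 1, Adam8, Col18a1, Esm1 and Gpnmb were called, with 124 and 33 called over all tested genes. Without WT replicate 2 only Adam8, Col18a1 and Esm1 of the members were called, with 22 over all tested genes. Without WT replicate 3, 7 members were called, Ecm1 among them, and 518 over all tested genes. With a covariate for the lung epithelial share Col18a1 alone of the members was called, and 8 over all tested genes. In that fit 7 members, and 1843 of all 12720 tested genes, had an unadjusted p under 0.05. Of the list genes outside the members, edgeR called 0 of 151 without KO replicate 1 and 0 of 147 without KO replicate 3. The filter was rerun in each fit, and 24 and 19 of these genes had an unadjusted p under 0.05.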

How the data were processed

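For 6 libraries the authors deposited a table of unnormalized read counts, 1 row per RefSeq transcript with its length in bases, per the file headers and the values. The submitters' processing notes list bcl2fastq, TopHat2 2.2.1 and Bowtie2 2.2.6, with mm10 as the genome build. For the counting program, annotation release, strand setting and filters, the sources used here give nothing. The table has 31682 rows and 23992 symbols, 4343 of them with several rows. All rows name a gene, and 0 columns of per-sample values were left unused.

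For each symbol the row with the highest summed count was kept. The filter was filterByExpr with a minimum count of 10 and a minimum total of 15, which 12720 genes passed, and counts were scaled by TMM. KO and WT were compared with the quasi-likelihood test of edgeR 4.0.16 (robust glmQLFit, glmQLFTest) in R 4.3.3, with Benjamini-Hochberg adjustment over all tested genes and calls at an adjusted p under 0.05. The SE of a log2 fold change was taken as its size over the root of the F statistic. The labels do not say whether replicates are separate animals. The p-values thus measure the spread of these samples alone, which may be technical. No library pair had counts that agree within sampling noise (lowest chi-square per degree of freedom 13.2).

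The members and the gene lists were chosen with earlier results of these data known. Besides the members, Crlf2 and Foxp3, the text names up to 3 called genes of smallest p per direction in each family list. In lists with 0 called it names the 2 tested genes of highest CPM per kilobase. For each member it names the 3 nearest profiles (log2 CPM, prior count 2), leaving out the members and unnamed loci. For marker lists it draws on the first 3 genes. A few genes named by this rule are not reported here, though counted. Polr2b, Gm16033, Gm16034 and Gm16201 are named for their overlap, and Hbb-bt and Hbb-b2 for their equal values. Coordinates come from GENCODE M21 on mm10 and promoter sequences from RefSeq on GRCm38.p6. The alternatives were DESeq2 1.42.0, limma-voom (limma 3.58.1), DESeq2's size factors, scaling to pan-T genes, no filter, the longest row per symbol, a replicate block, 2 marker-share covariates, and leaving out each library.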

Additional observations from a re-analysis of the deposited data

How the results depend on the processing

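With edgeR, 221 genes were called. The number was 863 with DESeq2, 123 with the replicate block, 599 with the macrophage share as a covariate, 8 with a covariate for the lung epithelial share, and 4 (without KO replicate 1) to 518 (without WT replicate 3) when single libraries were left out. Of the list genes outside the members 6 were called. That count was 10 with DESeq2, 3 with scaling to pan-T genes, 2 with the replicate block and 16 with the macrophage covariate. It was 0 with the lung covariate and 0 to 13 when single libraries were left out. With the lung covariate 15 of the 131 list genes had an unadjusted p under 0.05, against 1843 of all 12720 tested genes. Of the members 6 were called, against 1 with the lung covariate and 0 to 7 when single libraries were left out. Adam19 changed sign to -0.0754 with pan-T scaling. Foxp3 (0.23) changed sign to -0.0667 without WT replicate 3, and ranged from -0.07 to 0.47 when single libraries were left out. WT and KO libraries were not paired by number in the reported fit. Across genes, the deviations of same-numbered WT and KO libraries correlated at r = 0.08, -0.15 and -0.04. For differently numbered libraries r ran from -0.145 to 0.185. With 3 libraries per group, these values cannot decide whether the numbers stand for pairs. The replicate block left 6 members called, while Npnt, Adam33 and Mfge8 were not called with it. The causes of these shifts were not tested. Depth limits Esm1, Col18a1, Wisp1 and Igfbp7 in WT replicate 2, where each rests on 17 reads or fewer.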
